A study of Sus scrofa with 81 samples.

Results

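Skeletal muscle RNA of fetal pigs at the stages E85, E90 and E95 was compared with that at the stages E70, E75 and E80. The comparison took 18 of the 81 libraries of the series, 9 in each group and 3 at each stage. Libraries were taken by the stage in their titles, and the stages were chosen with earlier results of these data known. All 18 came from pigs of the breed spelled Landrance in the labels, no treatment is named, and the stage names were read as days of gestation. The muscle, the sex and the litter of the fetuses are not in the labels, and it is not stated there that each library is a fetus of its own, so the p-values measure only how far these libraries spread. Total RNA depleted of ribosomal RNA was sequenced, and the deposited values are FPKM, a measure in which the authors divided fragment numbers by transcript length and by the size of the library, so that levels are relative to all RNA measured in it.

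Muscle fibres of large mammals form in waves before birth, and the fibres then exchange embryonic and neonatal forms of myosin, troponin and actin for adult ones. Over the same period fetal muscle builds up mitochondria and calcium stores, its nerve contacts mature, and cell division in the tissue slows. Myosin heavy chains are the motor proteins of contraction, and each fibre type is known by the one it carries: MYH3 in embryonic, MYH8 in neonatal, MYH7 in slow, and MYH2, MYH1 and MYH4 in adult fast fibres of rising speed.

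A gene was called when its adjusted p in limma was below 0.05 and its change was at least 1.5-fold on the log2(FPKM + 1) scale, a scale that understates the change of low genes. Of 12641 genes tested, 486 (3.84%) were called, 213 higher (1.68%) and 273 lower (2.16%) at E85 to E95. At a 2-fold limit 94 genes were left (0.744%), 43 higher (0.34%) and 51 lower (0.403%). Without a fold limit 5709 genes passed (45.2%), 1956 higher (15.5%) and 3753 lower (29.7%). The median log2 change over all genes was -0.05. Under median-ratio scaling the calls were 259 higher and 222 lower, so the balance between the directions depends on the scaling. The 9 libraries of one group lay wholly apart from the 9 of the other in 306 genes (2.42%), 75 higher (0.593%) and 231 lower (1.83%), and in 130 of the called genes. With the 3 stage means of each group in place of the libraries, 14 genes were called, 6 higher and 8 lower, and 2426 of all genes (19.2%) had an unadjusted p below 0.05. In the fit to libraries 52.1% of all genes had an unadjusted p below 0.05, 18.3% higher and 33.8% lower.

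The 3 adult fast myosins all rose, MYH1 the most of any gene with a name that kept its call whichever library was left out. MYH1 (NCBI gene 100125538), the heavy chain of 2X fibres, had 130, 102 and 109 FPKM at E85, 189.5, 261 and 193 at E90 and 419, 328 and 576 at E95, against 29.5, 32.3 and 36.7 FPKM at E70, 25.5, 28.04 and 45.3 at E75 and 76.4, 91.7 and 46.3 at E80. Every library of E85 to E95 stood above every library of E70 to E80, and the log2 change was 2.36 ± 0.14 (SE), adjusted p = 1.6e-08. MYH2 (397256), of 2A fibres, ran from 108 to 523 FPKM with a median of 283 at E85 to E95, against 43.4 to 137 FPKM with a median of 77.2 at E70 to E80. The groups overlapped in MYH2, because the E85 libraries lay within the range of the early ones; the log2 change was 1.62 ± 0.20 (SE), adjusted p = 1.3e-05. MYH4 (100144306), of 2B fibres, ran from 27.8 to 125 FPKM with a median of 53.3 at E85 to E95, against 13.0 to 33.8 FPKM with a median of 18.4 at E70 to E80, a log2 change of 1.63 ± 0.13 (SE), adjusted p = 1.9e-07. It too overlapped, at E85. The sarcomeric myosins, like TUBB2B and GSTM3 further on, have near-identical relatives, and how the authors' counting divided shared reads between them is not known, so single levels in these families are uncertain.

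The embryonic forms fell in the same libraries. MYH3 (396711) ran from 212 to 719 FPKM with a median of 456 at E85 to E95, against 752 to 1607 FPKM with a median of 1361 at E70 to E80, and the groups did not overlap (log2 change -1.44 ± 0.13 (SE), adjusted p = 4e-07). MYL4 (100516998), the myosin light chain shared by embryonic muscle and the atrium of the heart, had 159, 201 and 88.2 FPKM at E85, 70.4, 54.3 and 79.4 at E90 and 46.7, 34.3 and 33.3 at E95, against 446, 339 and 399.8 FPKM at E70, 353, 289.9 and 272 at E75 and 262, 217 and 198 at E80. It had the largest fall of the 12 named by size of fall (log2 change -2.06 ± 0.14 (SE), adjusted p = 3e-08), and only E85 replicate 2 reached into the early range. TNNT2 (100622450), the cardiac troponin T that embryonic skeletal muscle also makes, ran from 37.5 to 146 FPKM at E85 to E95, against 174 to 326 FPKM at E70 to E80, with no overlap (log2 change -1.54 ± 0.10 (SE), adjusted p = 3e-08).

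MYH8 (110255887), the neonatal myosin, did not pass the test and was the most abundant of the 6 heavy chains in every library of both groups. It ran from 1453 to 3088 FPKM with a median of 2316 at E85 to E95, against 1997 to 3238 FPKM with a median of 2454 at E70 to E80, with a log2 change of -0.11 ± 0.11 (SE), adjusted p = 0.47. Of the FPKM summed over the 6 heavy chains, MYH8 held 64.1% ± 3.7 at E85 to E95 and 59.6% ± 7.5 at E70 to E80 (SD, n = 9 each). MYH1, MYH2 and MYH4 together held 15.3% ± 6.8 at E85 to E95 and 3.46% ± 1.43 at E70 to E80, and MYH3 held 12.7% ± 5.8 at E85 to E95 and 27.8% ± 7.5 at E70 to E80 (SD, n = 9 each). By stage, the summed share of the 3 adult fast chains was 3.22%, 2.23%, 4.93%, 9.11%, 13.6% and 23.1% from E70 to E95 (means, n = 3 each). MYH7, the slow chain, had 169.6 to 436 FPKM at E85 to E95, against 199.8 to 631 FPKM at E70 to E80, and its log2 change of -0.40 ± 0.13 (SE), adjusted p = 0.023, stayed under the fold limit.

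**Figure D1:**
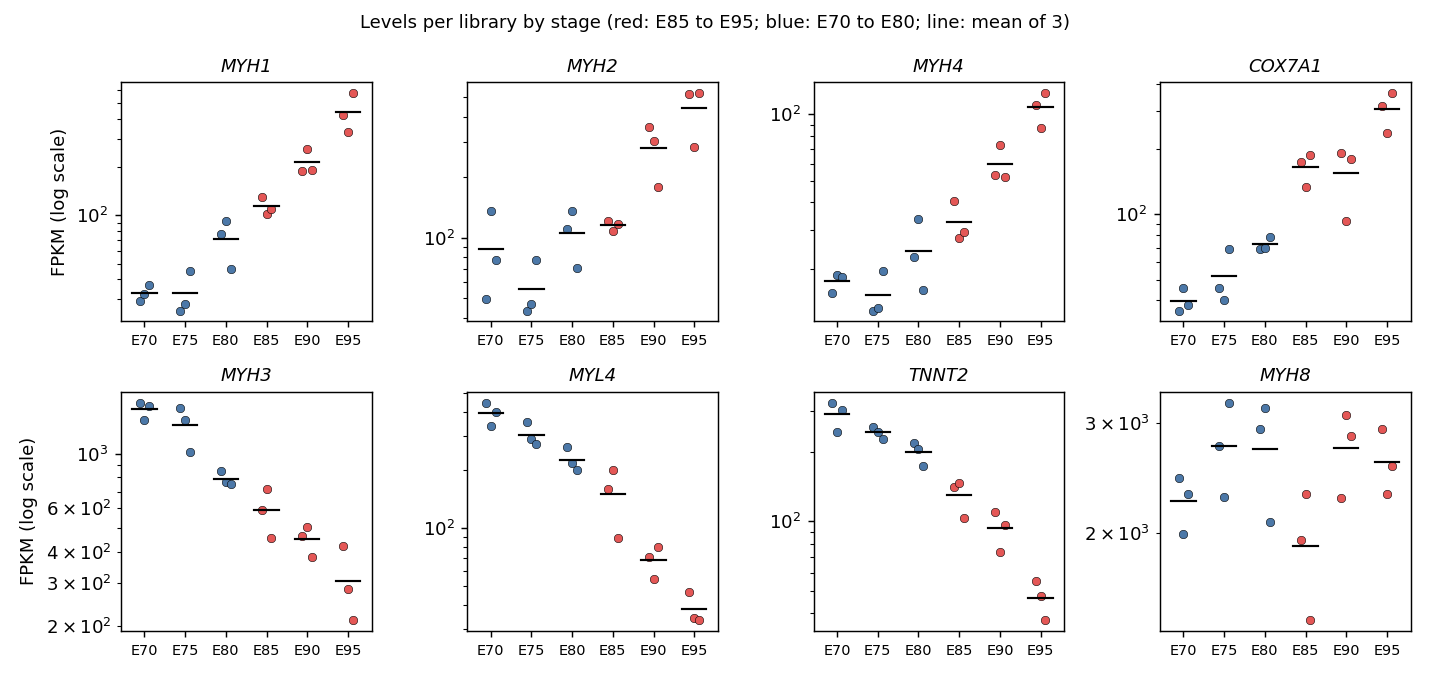
FPKM on a log axis for 8 genes in each library at the 6 stages; points are libraries (red E85 to E95, blue E70 to E80) and lines are means of 3. MYH1, MYH2, MYH4 and COX7A1 are highest at E95, MYH3, MYL4 and TNNT2 are lowest at E95, and the ranges of MYH8 overlap.

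Taken by list, 6 of the 8 developmental contractile genes fell, beside 2.16% of all genes, and none rose, with a median log2 change of -0.999. Besides MYL4, TNNT2 and MYH3 these were MYBPH, a myosin-binding protein of immature fibres (-1.32 ± 0.14, SE), ACTC1, the cardiac actin of fetal muscle (-0.68 ± 0.10, SE), and MYL7, the atrial regulatory light chain (-0.66 ± 0.18, SE). MYL7 was not called without the 3 libraries of E90, E90 replicate 2 alone or E80 replicate 1, and without the 3 of E85 the list had 6 calls lower and 1 higher. MYL6B, an alkali light chain, went against the list with 74.0 to 173 FPKM at E85 to E95, against 53.9 to 113 FPKM at E70 to E80 (log2 change 0.52, adjusted p = 0.021, under the fold limit). Of the 13 fast-fibre genes tested, 6 rose and 1 fell, beside 1.68% and 2.16% of all genes, with a median of 0.38. MYBPC2, the fast myosin-binding protein C, had a median of 25.2 FPKM at E85 to E95, against 8.13 FPKM at E70 to E80 (log2 change 1.31 ± 0.16 (SE), adjusted p = 1.2e-05). CASQ1, which stores calcium in the sarcoplasmic reticulum, rose by 1.03 ± 0.09 (SE) and ATP2A1, the fast calcium pump, by 0.68 ± 0.10 (SE).

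The 1 fast-fibre gene that fell was ACTN3, the alpha-actinin of fast-fibre Z-discs, named here after its value was seen. It ran from 5.73 to 17.6 FPKM with a median of 8.98 at E85 to E95, against 8.77 to 26.0 FPKM with a median of 19.5 at E70 to E80 (log2 change -0.90 ± 0.17 (SE), adjusted p = 0.00059). The groups overlapped, and the lowest early library was E80 replicate 3. The most abundant fast gene, the regulatory light chain MYLPF, had 5984 to 11155 FPKM at E85 to E95, against 5396 to 8020.2 FPKM at E70 to E80, and did not pass (log2 change 0.25 ± 0.11 (SE), adjusted p = 0.081). Parvalbumin, PVALB, was under 1 FPKM in every library and was not tested.

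Of 13 slow-fibre genes 1 rose and 1 fell, beside 1.68% and 2.16% of all genes. PLN (397421), phospholamban, the brake on the slow calcium pump, ran from 21.7 to 103 FPKM with a median of 61.7 at E85 to E95, against 9.82 to 38.7 FPKM with a median of 16.8 at E70 to E80 (log2 change 1.52 ± 0.15 (SE), adjusted p = 9e-07). MYH7B, a slow-type myosin gene, fell by 0.78 on the log2 scale, but its change was -0.44 without the 3 libraries of E85 and then no longer reached 1.5-fold. The other 11 of 13 were not called, 8 of the 13 passed the adjusted p alone on the lower side, beside 29.7% of all genes, and 1 on the higher, and the list median was -0.26. Among 17 sarcomere scaffold genes 2 rose, beside 1.68% of all genes. TCAP, which caps titin at the Z-disc, had 343 to 674 FPKM at E85 to E95, against 192 to 290.4 FPKM at E70 to E80, with no overlap (log2 change 0.99 ± 0.09, SE), and titin itself, TTN, rose by 0.70 ± 0.10 (SE).

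**Figure D2:**
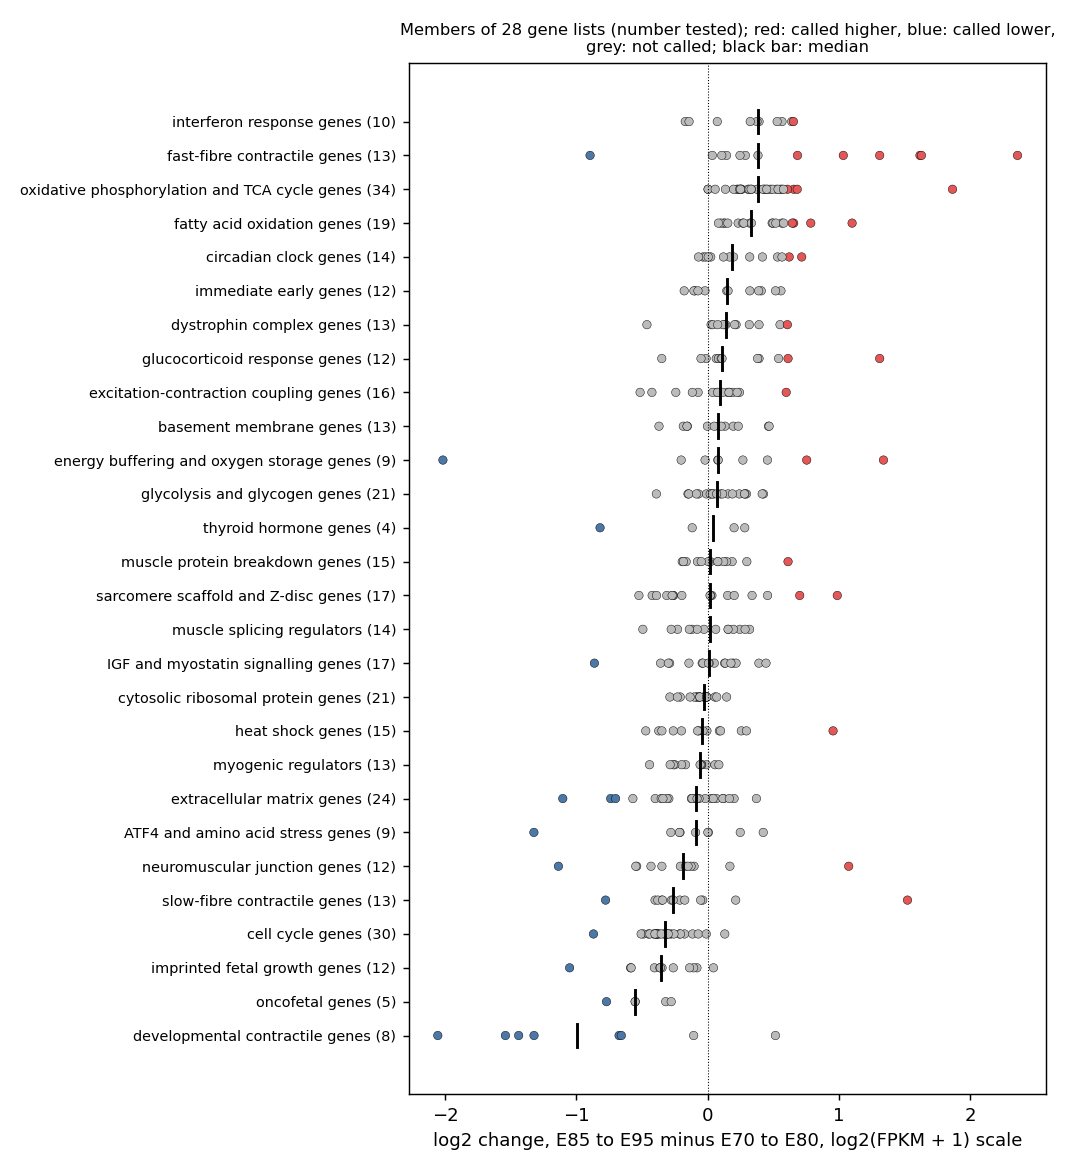
Log2 change, E85 to E95 minus E70 to E80, for each tested member of 28 gene lists; points are genes, red called higher, blue called lower, grey not called, and the black bar is the list median. The developmental contractile list lies lowest with a median of -0.999, and MYH1 at 2.36 is the rightmost point.

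At the nerve contact, the enzyme and the fetal receptor subunit moved in opposite directions. ACHE, which breaks down acetylcholine, had 6.69 to 11.1 FPKM at E85 to E95, against 3.07 to 5.18 FPKM at E70 to E80 (log2 change 1.07 ± 0.07 (SE), adjusted p = 4e-08). CHRNG, the gamma subunit of the fetal acetylcholine receptor, had 0.679 to 2.62 FPKM at E85 to E95, against 2.81 to 7.29 FPKM at E70 to E80 (log2 change -1.14 ± 0.13 (SE), adjusted p = 4e-06). Neither gene overlapped between the groups. CHRNE, the epsilon subunit that replaces gamma in adult muscle, ran from 0.577 to 1.71 FPKM at E85 to E95, against 0.594 to 1.98 FPKM at E70 to E80, and was not called (log2 change -0.21, adjusted p = 0.078). The other 9 of the 12 synapse genes were not called either, 6 of the 12 passed the adjusted p alone on the lower side, beside 29.7% of all genes, and the list median was -0.19. Of 16 excitation-contraction coupling genes 1 rose, beside 1.68% of all genes. It was the chloride channel CLCN1, by 0.60, a call that ended without E75 replicate 1, E80 replicate 3, E85 replicate 1 or E90 replicate 2, and without all 3 of E90.

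Genes of mitochondrial respiration were higher almost throughout, mostly by less than 1.5-fold. Of 34 oxidative phosphorylation and TCA cycle genes 4 were called, all higher, beside 1.68% of all genes. The adjusted p alone was passed by 30 on the higher side, beside 15.5% of all genes, and the median was 0.38. COX7A1 (399685), the muscle form of a cytochrome c oxidase subunit, had 174, 133 and 188 FPKM at E85, 192, 93.7 and 179.6 at E90 and 318, 239 and 363 at E95, against 35.9, 45.6 and 38.1 FPKM at E70, 45.8, 40.2 and 69.5 at E75 and 68.9, 70.2 and 78.7 at E80. The 2 groups did not overlap, although E90 replicate 2 was the lowest of the late libraries (log2 change 1.86 ± 0.14 (SE), adjusted p = 9.6e-08). COX7A2, its counterpart outside muscle, and COX6A1, a form of a different subunit found outside muscle, both had changes of 0.00. CYCS, cytochrome c, rose by 0.68 ± 0.11 (SE), the ATP synthase subunit ATP5F1C by 0.66 ± 0.09 (SE) and NDUFA4 by 0.61 ± 0.11 (SE), the last without a call when E75 replicate 2, E85 replicate 1, E90 replicate 1 or 3, or E95 replicate 3 was left out. The count of 4 was 8 under median-ratio scaling, 8 without E80 or without E85, 9 without E90, and 7 without E90 replicate 2 or without E95 replicate 2.

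Of 19 fatty acid genes 4 rose, beside 1.68% of all genes, with a median of 0.33. The adjusted p alone was passed by 14 on the higher side, beside 15.5% of all genes. ACSL1, which activates fatty acids, had 12.3 to 45.4 FPKM at E85 to E95, against 7.44 to 16.1 FPKM at E70 to E80 (log2 change 1.10 ± 0.08, SE). PPARGC1A, a coactivator that drives mitochondrial genes, had 1.68 to 4.65 FPKM at E85 to E95, against 0.637 to 1.63 FPKM at E70 to E80, with no overlap (log2 change 0.79 ± 0.11, SE). The fatty acid carrier CD36 rose by 0.66 and the lipase LPL by 0.64, and adipocytes and endothelial cells make these genes too. Summed FPKM of the 12 adipocyte markers ran from 74.7 to 230.0 at E85 to E95, against 46.9 to 159.9 at E70 to E80, and of the 14 endothelial markers from 271 to 323 at E85 to E95, against 203 to 279 at E70 to E80. Their part in the fatty acid result was not tested. The 4 calls were 7 without E80, 9 without E85 and 6 without E90 or under median-ratio scaling. SLC2A4 (396754), the insulin-responsive glucose transporter, ran from 7.50 to 21.1 FPKM with a median of 13.7 at E85 to E95, against 1.90 to 8.90 FPKM with a median of 3.92 at E70 to E80 (log2 change 1.49 ± 0.11 (SE), adjusted p = 1e-07). None of the 21 glycolysis and glycogen genes tested in limma was called, and the median was 0.07. In that fit 7 higher and 2 lower had an unadjusted p below 0.05, beside 18.3% and 33.8% of all genes. PYGM, the muscle glycogen phosphorylase, had medians of 93.4 FPKM at E85 to E95 and 88.9 FPKM at E70 to E80 (log2 change 0.07 ± 0.12 (SE), adjusted p = 0.69).

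Of the creatine kinases, which buffer ATP, the brain form fell and the muscle form was not called. CKB (100627332), the brain form that immature muscle also makes, had 5.50, 8.92 and 6.15 FPKM at E85, 2.56, 3.13 and 3.76 at E90 and 1.78, 2.82 and 1.98 at E95, against 34.9, 24.1 and 32.2 FPKM at E70, 24.4, 18.9 and 14.5 at E75 and 12.01, 10.5 and 7.51 at E80. The groups touched only where E85 replicate 2 lay above E80 replicate 3 (log2 change -2.02 ± 0.12 (SE), adjusted p = 1.6e-08). CKM, the muscle form, had medians of 1041 FPKM at E85 to E95 and 1050.3 FPKM at E70 to E80, and its log2 change of -0.02 ± 0.12 (SE), adjusted p = 0.91, was 0.03 under median-ratio scaling. Adult muscle paralogs of the translation machinery rose. RPL3L, the muscle form of a ribosomal protein, had 21.6 to 41.9 FPKM at E85 to E95, against 5.84 to 20.9 FPKM at E70 to E80, with no overlap (log2 change 1.34 ± 0.12, SE). EEF1A2, the muscle elongation factor, rose by 0.75 ± 0.11 (SE) and was much higher at E95 (144 FPKM) than at E85 (38.9) or E90 (54.9; means, n = 3 each). None of the 21 cytosolic ribosomal protein genes was called in limma, 3 lower had an unadjusted p below 0.05, beside 33.8% of all genes, and the median was -0.03.

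Among the others of the 12 largest rises, CLIC5, an intracellular chloride channel protein, had 2.07 to 12.6 FPKM at E85 to E95, against 0.653 to 2.37 FPKM at E70 to E80 (log2 change 1.61 ± 0.09, SE). ART3, an ADP-ribosyltransferase-like surface protein of muscle, had 70.7 to 137 FPKM at E85 to E95, against 16.0 to 61.5 FPKM at E70 to E80 (1.57 ± 0.12, SE), without overlap. CFD, complement factor D or adipsin, had 11.8 to 36.7 FPKM at E85 to E95, against 5.10 to 10.4 FPKM at E70 to E80 (1.39 ± 0.10, SE), also without overlap. CCL21, a chemokine of lymphatic vessels, ran from 2.38 to 17.4 FPKM at E85 to E95, against 0.147 to 5.83 FPKM at E70 to E80 (1.58 ± 0.16, SE). SEC14L5 rose by 1.48 ± 0.13 (SE) and ABCA6, a lipid transporter, by 1.40 ± 0.10 (SE), both among genes of low level.

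The other largest falls were of genes with different roles. TUBB2B, a tubulin of developing tissue, had 52.0 to 230.3 FPKM at E85 to E95, against 156 to 346 FPKM at E70 to E80 (log2 change -1.38 ± 0.09, SE). ERBB3, the neuregulin receptor of Schwann cells, had 5.58 to 14.6 FPKM at E85 to E95, against 21.9 to 45.6 FPKM at E70 to E80, without overlap (-1.58 ± 0.09, SE). FAM171A2, a membrane protein gene, had 3.02 to 4.14 FPKM at E85 to E95, against 6.01 to 23.8 FPKM at E70 to E80, without overlap (-1.60 ± 0.10, SE). SLC15A2, a peptide transporter, fell by 1.53 ± 0.09 (SE) on the log2 scale, JPT1 by 1.39 ± 0.08 (SE), and DPT, dermatopontin of the matrix, by 1.38 ± 0.17 (SE). GSTM3, a glutathione transferase, and the small calcium-binding protein S100A7 had wider errors, with changes of -1.54 ± 0.36 and -1.70 ± 0.32 (SE). GSTM3 was listed at 0.945 to 18.9 FPKM at E85 to E95, against 8.84 to 52.7 FPKM at E70 to E80, and its 2 lowest libraries were E85 replicates 2 and 3.

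Proliferation genes were lower by small amounts. Of 30 cell cycle genes, 25 passed the adjusted p alone on the lower side, beside 29.7% of all genes, and the median was -0.33. Only 1 was called, where 2.16% of all genes were called lower. It was TYMS, thymidylate synthase, with 5.54 to 13.0 FPKM at E85 to E95, against 15.3 to 27.9 FPKM at E70 to E80 (log2 change -0.87 ± 0.07, SE), without overlap. TOP2A, a topoisomerase of dividing cells, had 22.3 to 41.4 FPKM at E85 to E95, against 30.7 to 45.8 FPKM at E70 to E80 (-0.30 ± 0.06 (SE), adjusted p = 0.00054). Without the 3 libraries of E85 the list had 6 calls. The FPKM summed over the 30 genes was 401 ± 12.8, 356 ± 31.3 and 266 ± 21.7 at E85, E90 and E95, against 457 ± 17.8, 389 ± 29.9 and 402 ± 16.3 at E70, E75 and E80 (SD, n = 3 each).

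None of the 13 myogenic regulators tested was called in limma, and 5 had an unadjusted p below 0.05, all lower, beside 33.8% of all genes on that side. MYOG, which drives myoblast differentiation, had a median of 180.1 FPKM at E85 to E95, against 256 FPKM at E70 to E80 (log2 change -0.44 ± 0.07 (SE), adjusted p = 0.00017), short of the fold limit. PAX7, the satellite cell factor, had -0.29 ± 0.10 (SE), adjusted p = 0.031, and MYOD1 -0.05 ± 0.12 (SE), adjusted p = 0.78. None of the 14 splicing regulators was called in limma (5 higher and 4 lower at an unadjusted p below 0.05, beside 18.3% and 33.8% of all genes).

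Of 17 IGF and myostatin genes 1 was called, on the lower side, beside 2.16% of all genes. IGFBP2, a fetal IGF-binding protein, had a median of 27.5 FPKM at E85 to E95, against 69.3 FPKM at E70 to E80 (log2 change -0.86 ± 0.06 (SE), adjusted p = 5.1e-08). The growth factor IGF2 had medians of 86.4 FPKM at E85 to E95 and 94.4 FPKM at E70 to E80 (-0.04 ± 0.06 (SE), adjusted p = 0.6). Myostatin, MSTN, the inhibitor of muscle growth, had medians of 83.5 FPKM at E85 to E95 and 74.4 FPKM at E70 to E80 (0.18 ± 0.08 (SE), adjusted p = 0.074). Of 5 oncofetal genes tested 1 was called and of 12 imprinted genes 2, all lower, beside 2.16% of all genes. All 5 oncofetal genes tested passed the adjusted p on the lower side, beside 29.7% of all genes, with a median of -0.55. IGF2BP1, which binds fetal growth mRNAs, was called with 0.406 to 0.792 FPKM at E85 to E95, against 0.944 to 2.83 FPKM at E70 to E80 (-0.77 ± 0.05, SE). IGF2BP1 reached 1 FPKM, the level needed for testing, only at E70 to E80, so it entered the test through the group where it was higher. LIN28A and LIN28B were too low to test. Of the imprinted genes 9 passed the adjusted p alone on the lower side, beside 29.7% of all genes, with a median of -0.36; NNAT, neuronatin, had a change of -1.05 ± 0.15 (SE), and MEST of -0.59 ± 0.09 (SE), a call that ended under median-ratio scaling (-0.54) and without any 1 of E70 replicates 2 and 3, E75 replicate 2, E80 replicates 1 and 2, E85 replicates 1 and 3, E90 replicate 3 and E95 replicate 1.

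The stress and hormone lists named below held 1 or 2 calls each, and the immediate early list held none. Of its 12 genes tested, 5 higher and 1 lower had an unadjusted p below 0.05 in limma, beside 18.3% and 33.8% of all genes. That list had 1 call under median-ratio scaling or without E80, and 2 without E85, all higher. KLF9 (494562), a transcription factor induced by glucocorticoids and thyroid hormone, had 5.04 to 13.3 FPKM at E85 to E95, against 2.26 to 4.68 FPKM at E70 to E80, without overlap (log2 change 1.31 ± 0.08 (SE), adjusted p = 1.6e-08). Of the other 11 glucocorticoid-response genes CEBPD was called (0.61), not so without E90 replicate 1 (0.54) or the 3 libraries of E85 (0.55), and FKBP5, a further target of the hormone, had -0.35 ± 0.07 (SE). RXRG, a retinoid receptor that pairs with thyroid receptors, fell by 0.82 ± 0.11 (SE) on the log2 scale, and was 1 of 4 thyroid genes tested. ASNS, asparagine synthetase, was the 1 of 9 amino acid stress genes called, with 16.8 to 74.0 FPKM at E85 to E95, against 59.9 to 131 FPKM at E70 to E80 (-1.32 ± 0.11, SE). HSPB6, a small heat shock protein, rose by 0.96 ± 0.07 (SE), 1 of 15 heat shock genes. It peaked at E85 (31.9 FPKM) and had 15.8 FPKM at E90 and 20.8 at E95 (means, n = 3 each). BHLHE40 and BHLHE41, repressors of the circadian clock, rose by 0.72 and 0.62, but neither was called without the 3 libraries of E90 (0.56 and 0.49), nor BHLHE41 without E95 replicate 1. The 10 interferon genes and the 15 protein breakdown genes gave 1 call each, OAS1 and FOXO1, which ended without E95 replicate 3 for OAS1, without E75 replicate 1 or E95 replicate 2 for FOXO1, and without the 3 libraries of E90 for both. Over the 28 lists 415 of 441 genes could be tested, of which 29 were called higher and 20 lower. That was 11.8% of the list genes tested, beside 3.84% of all genes. The lists were chosen with results of these data known, so the difference is no test of them.

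Matrix genes fell where they were called. Of 24 extracellular matrix genes 3 fell, beside 2.16% of all genes, with a list median of -0.09. They were TNC (tenascin C, -1.10 ± 0.14), the fibril-associated collagen COL12A1 (-0.74 ± 0.19) and CTHRC1, a collagen triple helix repeat protein (-0.70 ± 0.13, SE each). None of 13 basement membrane genes was called in limma (4 higher and 4 lower at an unadjusted p below 0.05, beside 18.3% and 33.8% of all genes). Markers of cartilage and tendon moved with these genes. COL2A1, the cartilage collagen, had 7.00 to 56.1 FPKM at E85 to E95, against 23.5 to 101 FPKM at E70 to E80 (-0.94 ± 0.21 (SE), adjusted p = 0.0018). Summed FPKM over the 15 cartilage and bone markers ran from 43.4 to 224 at E85 to E95, against 136 to 444 at E70 to E80, and 2 of 7 tested fell, beside 2.16% of all genes. Over the 7 tendon markers it ran from 226 to 784 at E85 to E95, against 402 to 939 at E70 to E80, and 2 of 7 fell, beside the same share. These were SCX, the tendon transcription factor, not called without E70 replicate 2, E80 replicate 3 or E90 replicate 3, and COMP, a cartilage and tendon matrix protein (adjusted p = 0.037), not called without any 1 of E70 replicate 2, E75 replicate 1, E80 replicates 1 and 3, E85 replicates 1 and 2, E90 replicates 1 and 3 and E95 replicates 1 and 3. The part of these markers in the matrix result was not tested. In bulk tissue, fewer cells of a type and less RNA per cell cannot be told apart.

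Other cell types were seen through their markers as well. As a check of the tissue label, the 9 skeletal fibre genes summed to 18856 to 27168 FPKM at E85 to E95, against 17019 to 23346 FPKM at E70 to E80. Of 9 smooth muscle and pericyte markers 3 fell and 2 rose, beside 2.16% and 1.68% of all genes. Their summed FPKM ran from 264 to 366 at E85 to E95, against 288 to 487 at E70 to E80. Those that fell were the calponin CNN1 (-1.24 ± 0.12), the leiomodin LMOD1 (-0.93 ± 0.08) and the smooth muscle actin ACTA2 (-0.72 ± 0.08), and RGS5, of pericytes, rose by 0.99 ± 0.07 (SE each). MYH11, the smooth muscle myosin, rose by 0.61 ± 0.10 (SE), but was not called without E80 replicate 3, E85 replicate 2, E95 replicate 2 or the 3 libraries of E90. ACTA2 is also made by immature muscle fibres. Of 11 nerve and Schwann cell markers tested 2 rose and 1 fell, beside 1.68% and 2.16% of all genes, and the median was 0.22. The adjusted p alone was passed by 6 on the higher side, beside 15.5% of all genes, and by 4 on the lower, beside 29.7%. The myelin gene MBP was among those that rose (0.66 ± 0.14, SE), and the one that fell was ERBB3. Of 14 endothelial genes 8 passed the adjusted p alone on the higher side, beside 15.5% of all genes, with a median of 0.32, and 1, EMCN (endomucin), was called, not so without E75 replicate 1 or without the 3 libraries of E90. Among 10 adipocyte genes tested G0S2, an inhibitor of lipolysis, rose by 1.13 ± 0.17 (SE), and ADIPOQ, adiponectin, reached 51.2 FPKM in E95 replicate 2 and 0.899 FPKM in E95 replicate 1. Erythroid genes were not called in limma (0 of 5, 0 at an unadjusted p below 0.05, beside 52.1% of all genes).

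Some libraries stood apart. All 18 were closest to a library of their own stage. On the first principal component (35.5% of the variance) the stages lay in order of age, with E80 and E85 next to each other, and the second (16.2%) set the E85 libraries, at -19.0 to -28.6, apart from E90 replicate 2, at 19.98. The long noncoding RNA LOC106509199 took 8.22% to 9.69% of all FPKM at E85, 2.28% to 7.76% at E90 and 0.866% to 1.54% at E95, against 0.567% to 1.26% at E70 and E75 and 4.36% to 5.91% at E80, and with it left out of the sum 486 genes were called between the groups, but 1110 in place of 734 at E90 against E85. EIF1AY, a Y-linked gene, was above 20 FPKM in 5 of 9 libraries of E85 to E95 and in 2 of 9 of E70 to E80, and below 0.2 FPKM in the others. The early libraries above 20 FPKM were of E80, and the highest values at E70 and E75 were 0.021 and 0 FPKM. With the EIF1AY level as a covariate 506 genes were called, 458 of them in common, and CEBPD, CLCN1, EMCN and MYH11 lost their call. Keratin genes of the epidermis reached 53.8 summed FPKM in E95 replicate 2, KRT5 among them at 24.1 FPKM. The highest sum was 6.55 at E90 and 1.39 at E85, against at most 1.82 in the early libraries. Without E95 replicate 2 the count between the groups was 531.

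**Figure D3:**
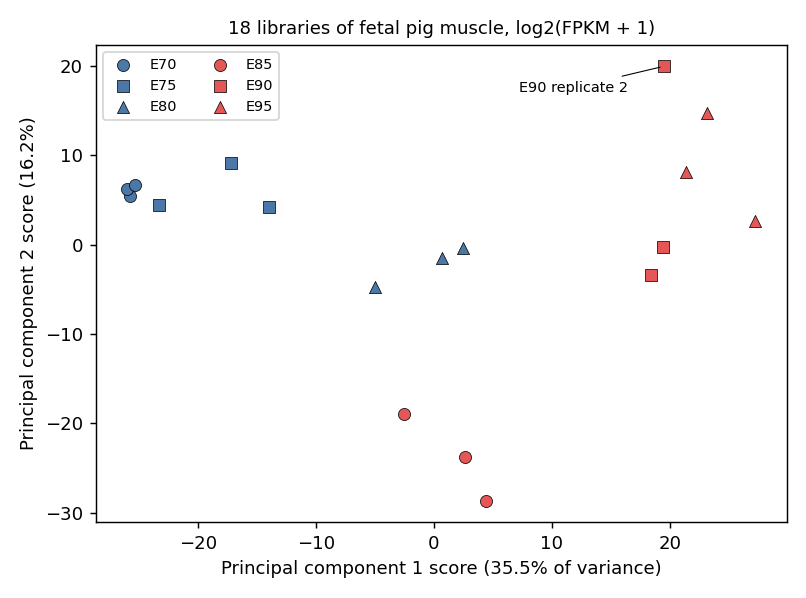
Scores of the 18 libraries on the first 2 principal components of log2(FPKM + 1) over the 12641 genes; red marks E85 to E95, blue E70 to E80, and shapes mark stages. E80 and E85 lie close on component 1 and E85 is apart on component 2, where E90 replicate 2 has the highest score.

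The calls were spread unevenly over the stages, with the most at E90 against E85. At the steps between neighbouring stages 15 genes (0.119%) were called at E75 against E70, 210 (1.66%) at E80 against E75, 267 (2.11%) at E85 against E80, 734 (5.81%) at E90 against E85 and 204 (1.61%) at E95 against E90. The count at E75 against E70 was 4, 6 and 9 without E70 replicate 1, 2 or 3 and 5 without E75 replicate 3, and that at E80 against E75 was 138 without E75 replicate 1. With the EIF1AY level as a covariate the count at E80 against E75 was 178. The count at E90 against E85 was 478 without E90 replicate 2, 963 without E90 replicate 1 and 990 without E90 replicate 3. The step of E95 against E90 gave 121 calls without E95 replicate 1 and 328 without E95 replicate 2. Of the 213 genes higher in the comparison of groups, 57 rose at all 5 steps of the stage means, and of the 273 lower ones 113 fell at all 5. In 153 of these higher and 221 of these lower genes each of the later stage means lay beyond each of the earlier ones. The called genes were picked by the contrast of these same means, so such counts are in part built in. The shares over all genes were not computed. Without the 3 libraries of E85, 810 genes were called (454 shared with the 486), and without the 3 of E80, 828 (474 shared).

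**Figure D4:**
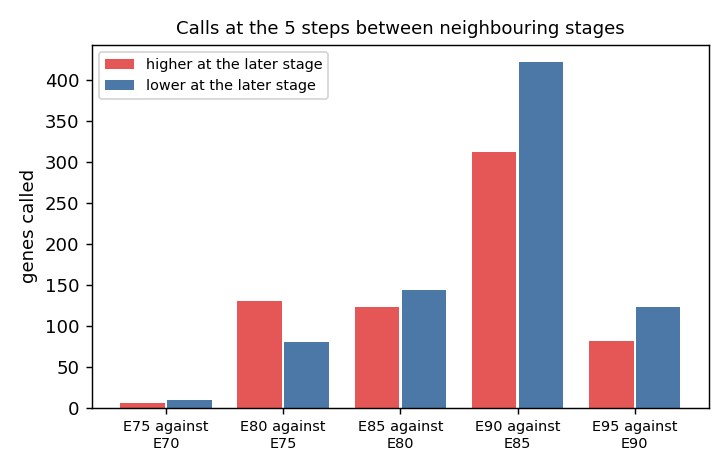
Genes called at each step between neighbouring stages, from E75 against E70 to E95 against E90; red bars are genes higher at the later stage and blue bars genes lower. The step of E90 against E85 has the most calls, 312 higher and 422 lower.

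The comparison of groups depended little on single E90 libraries. It gave 492, 512 and 482 calls without E90 replicate 1, 2 or 3, of which 461, 455 and 452 were among the 486, and 509 without all 3 (413 shared). Over all 18 libraries left out in turn the count ran from 453 to 531, and 374 genes, 161 higher and 213 lower, kept their call and direction whichever library was left out. E90 replicate 2 was the least like its stage, with correlations down to 0.975 with the other E90 libraries, where the 18 pairs within stages had a median of 0.988.

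The count for E90 against the mean of E85 and E95 moved much more with that library. It gave 136 calls (1.08%), 61 higher and 75 lower at E90, and 241, 58 and 272 without E90 replicate 1, 2 or 3; 46 of the 136 were also called without replicate 2. Among genes with a symbol the largest change was that of G0S2, with 13.1, 7.22 and 15.8 FPKM at E90, against 44.9, 24.2 and 23.0 at E85 and 23.5, 22.9 and 32.1 at E95 (log2 change -1.19 ± 0.26 (SE), adjusted p = 0.0078). COPS9, a small subunit of the COP9 signalosome, had 106, 28.3 and 104 FPKM at E90, against 154, 145 and 167.5 at E85 and 107, 90.8 and 132 at E95 (-0.92 ± 0.28 (SE), adjusted p = 0.036), so that E90 replicate 2 alone lay far below. CCL21 and NFE2L2, a regulator of the antioxidant response, were higher at E90 by 1.12 each, as was ADPRM, an ADP-ribose diphosphatase, by 1.12, and TMEM160, of mitochondria, was lower, at -1.06. Of these 6 genes, only TMEM160 was called without E90 replicate 2.

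**Figure D5:**
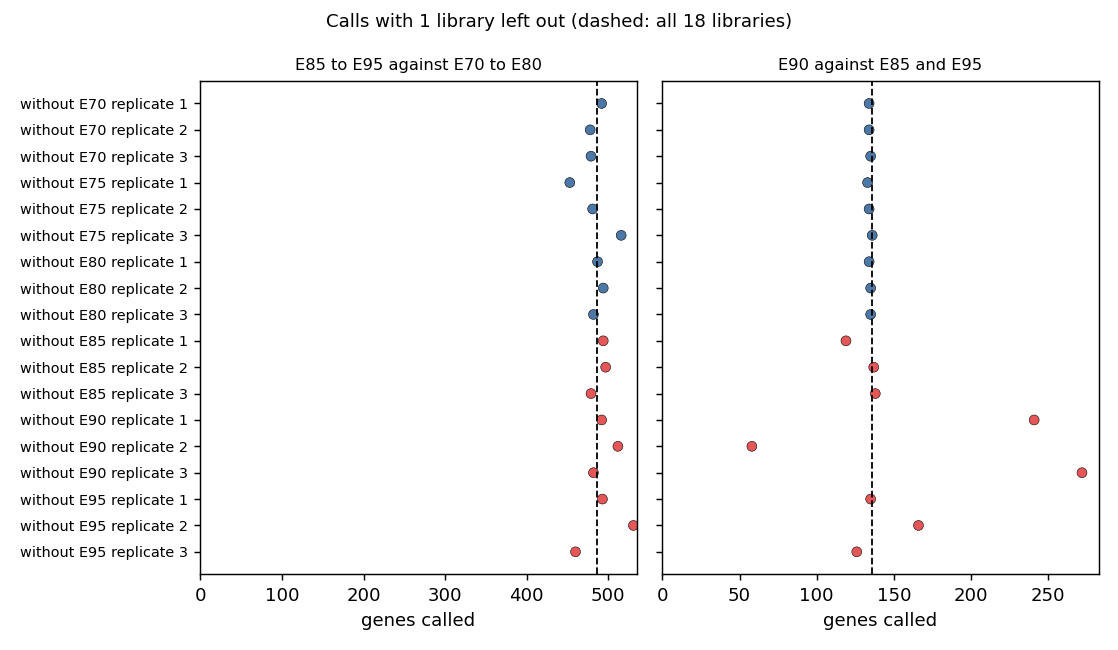
Genes called with each of the 18 libraries left out in turn (points, red for libraries of E85 to E95, blue for E70 to E80), for the comparison of groups on the left and for E90 against E85 and E95 on the right; dashed lines mark 486 and 136. The left counts stay between 453 and 531, and the right ones between 58 and 272.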

How the data were processed

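RNA of 18 pig skeletal muscle libraries was used. Per the submitters' processing notes, Trimmomatic, HISAT2 2.0.4 and StringTie 1.3.1 were used, and the authors deposited FPKM per gene. No coordinates or sequences are printed, since build and annotation were not given in the sources used here. Of 28325 table rows, 264 identical repeats were removed; the remaining 28061 genes include 5886 author-defined loci. All 22175 NCBI gene IDs matched RefSeq Sscrofa11.1, used for names alone; 1522 blank symbols were filled, 25 symbols turned into dates were restored, and 16 list genes were matched by product name.

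FPKM are shares of a library, so a few abundant transcripts lower all others. The authors' table holds no read counts. Low values fell on steps for 9.42% to 14.3% of values below 0.05 FPKM, too few to recover reads, so depth is not known.

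From these values, log2(FPKM + 1) was fitted with limma 3.58.1 in R 4.3.3 (6 stage means, 18 libraries, 12 residual degrees of freedom, mean-variance trend, two-sided, Benjamini-Hochberg over 12641 genes that reached 1 FPKM in 3 or more libraries). Genes named are the 12 largest rises and 12 largest falls that keep their call without any 1 library, at most 4 called members of each list, 14 fixed genes and the 6 largest changes at E90, plus called members named after their values were seen: ACTC1, MYL7, CASQ1, ATP2A1, ACTN3, MYH11 and SREBF2. Some called members of the lists are not reported here. Further contrasts were E90 against E85 and E95 and, added later, 5 steps between stages. Alternatives varied pseudocount, filter, scaling, variance model, replicate block, libraries and fold limit. The stages, lists and genes were chosen with earlier results of these data known. The fit was also run on simulated data with independent noise and no differences between the stages of a group. That run cannot speak to the spread between stages.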

Additional observations from a re-analysis of the deposited data

Results flagged for a closer look

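In 182 groups of 9 libraries, from 91 named genes, 5 held a single library far from the other 8, by a gap to the nearest one, as a share of the range, past the 95% critical value of Dixon's test; chance gives about 1 in 20. At E85 to E95, COPS9 had 28.3 FPKM in E90 replicate 2. At E70 to E80, COL12A1 had 328 FPKM in E70 replicate 2, EEF1A2 had 66.5 FPKM in E75 replicate 3, NNAT had 11.7 FPKM in E70 replicate 1, and S100A7 had 2.03 FPKM in E80 replicate 2, the lowest of its group. COL12A1, EEF1A2, NNAT and S100A7 kept their calls without any 1 of the 18 libraries, and COPS9 was not called between the groups.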

How the results depend on the processing

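For E85 to E95 against E70 to E80 the count of 486 (213 higher, 273 lower) was 946 (420 and 526) with a pseudocount of 0.1, 94 (43 and 51) at a 2-fold limit, 5709 (1956 and 3753) with no fold limit, 14 (6 and 8) with stage means as units, and, added after the data were seen, 810 (353 and 457) without E85 and 828 (360 and 468) without E80. It ran from 453 to 531 with 1 library left out, and from 460 to 527 under the other settings run. The 136 calls for E90 were 282 with the smaller pseudocount, 16 at 2-fold, 2260 with no fold limit, and 58 to 272 with 1 library left out. With the replicate number as a block, 489 and 142 genes were called and no named gene lost its call. Of 45 same-number pairs of libraries from different stages, 18 deviated together with a correlation above 0.1. The mean correlation was 0.052 for same-number pairs and -0.026 for other pairs. Whether the numbers pair the libraries was not tested. Signs turned for genes that were not called: CKM at 0.032 (median-ratio), 0.051 (quantile), 0.017 (without E85) and -0.082 to 0.063 with 1 library left out; IGF2 at 0.01 (median-ratio), 0.053 (without E90) and -0.066 to 0.005; MYOD1 at 0.004 (median-ratio), 0.054 (without E85) and -0.127 to 0.045; and without E85 MSTN at -0.006 and MYH8 at 0.061. The causes were not tested. Read depth is not known, which limits low genes.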

Other observations

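Cholesterol synthesis is the pathway by which cells make sterols from acetyl-CoA under control of SREBF2. Genes of cholesterol metabolism were grouped after their leading members had been seen among the genes that fell, so the count is a description and no test of the pathway. Of 23 genes listed 22 were tested, 13 were lower and none was higher at E85 to E95, with a median log2 change of -0.72, where 2.16% of all genes tested were lower. FDPS, farnesyl diphosphate synthase, had 11.5 to 27.5 FPKM with a median of 13.0 at E85 to E95, against 23.6 to 55.03 FPKM with a median of 40.6 at E70 to E80 (log2 change -1.18 ± 0.08 (SE), adjusted p = 3e-08 in limma), and the groups overlapped between E85 and E80. SQLE, squalene epoxidase, had 2.92 to 9.82 FPKM at E85 to E95, against 10.3 to 20.8 FPKM at E70 to E80, without overlap (-1.17 ± 0.09, SE). ACAT2, which starts the pathway, had a change of -1.08 ± 0.08 (SE). SREBF2 itself fell by 0.86 ± 0.08 (SE) on the log2 scale. Among the members not called, MVD and HSD17B7 had changes of -0.04 each. Summed over the list, FPKM was 344 ± 32.9, 297 ± 31.4, 239.6 ± 6.74, 223 ± 21.8, 164 ± 4.14 and 142 ± 1.97 from E70 to E95 (SD, n = 3 each). The 13 calls were 12 under median-ratio scaling, 18 without the E85 libraries, 16 without those of E80 and 13 without those of E90.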
